A study of Drosophila melanogaster with 135 samples.

Results

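Iron and metal binding proteins take up, carry, store and buffer iron, copper, zinc and related metals. The transcripts of 10 such genes were followed here in Drosophila muscle and heads: Tsf1, Tsf3, Fer1HCH, Fer2LCH, Mvl, Zip102B, MtnA, MtnB, MtnC and MtnD. They were taken by name from the 17023 genes of each table, by a list drawn up with earlier results of these data known, and all 10 were found in all 14 polyA RNA-seq tables. The tables compare 20 groups of male flies, each of 3 libraries, for 60 libraries in all. In muscle, 30d WT flies were set against 3d WT flies, and 7 mutants against 30d WT flies. In heads, 6 mutants were set against 30d WT flies. WT was the line 5905 in every group.

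The mutants carried deletions in genes of Polycomb Repressive Complex 2 (PRC2), the enzyme complex that trimethylates histone H3 at lysine 27 and is known for holding developmental genes silent. All were 30d old. The single mutants were esc289, E(z)239, Pcl421, Su(z)12253 and, in muscle alone, p55192, and the double mutants were esc289 with E(z)239 and Pcl421 with Su(z)12253. The labels set a pair of limits: the libraries of each Pcl group are given the genotypes Pcl421, Pcl422 and Pcl423, 1 each, and the titles and descriptions of the muscle controls disagree, so that the titles were followed. Per the study's methods the deletions were heterozygous, were crossed back into the WT background, and each library pooled tissue of many flies. All 5 single mutants of muscle had the same WT group. Likewise 1 WT group of heads served all 4 single mutants. The WT muscle group of Pcl Su(z)12 was the 30d group of the age comparison. Mutant ratios that share a WT group therefore share its error.

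In flies, as in other animals, iron is moved and stored by a small set of proteins. Transferrins carry iron in the hemolymph, and ferritin, a shell of heavy chains that oxidize iron and light chains that help to build the mineral core, stores it and is largely secreted in insects. Metallothioneins are short, cysteine-rich proteins that bind copper, cadmium and zinc. Their genes are switched on by the metal-responsive factor MTF-1, which binds metal response elements in their promoters.

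Genome positions are given for dm6 with the Ensembl BDGP6 annotation. Tsf1 lies at chrX:18387084-18390344. The ferritin chains are neighbors on opposite strands, with Fer1HCH at chr3R:30385573-30388178 and Fer2LCH at chr3R:30387804-30390584. Their ends overlap by 375 bases, from 30387804 to 30388178, and both genes have exons there. Reads were counted without strand, so reads from this stretch cannot be told apart. Levels per kilobase below use exon lengths that include it. Mvl lies at chr3R:21051383-21060800 and Zip102B at chr4:310930-314087. MtnA lies at chr3R:9783407-9784370, away from MtnC at chr3R:20360308-20360634, MtnB at chr3R:20503102-20503746 and MtnD at chr3R:20534962-20535301.

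Metallothionein promoters are shown because the 4 genes differ strongly in level and in response while their promoters carry the same element. The 130 bases before each gene start were read from the dm6 genome, 5′ to 3′ on the gene's strand. Capitals mark matches to the core of the metal response element, TGCACNC or TGCGCNC, searched on both strands, so that GNGTGCA and GNGCGCA are the same cores read from the other strand.
MtnA, chr3R:9784371-9784500, minus strand: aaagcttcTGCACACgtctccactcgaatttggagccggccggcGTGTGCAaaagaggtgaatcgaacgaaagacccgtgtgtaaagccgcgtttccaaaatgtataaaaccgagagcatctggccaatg
MtnB, chr3R:20503747-20503876, minus strand: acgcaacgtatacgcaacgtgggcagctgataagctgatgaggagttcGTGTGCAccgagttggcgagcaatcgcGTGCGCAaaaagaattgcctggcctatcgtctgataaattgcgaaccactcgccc
MtnC, chr3R:20360178-20360307, plus strand: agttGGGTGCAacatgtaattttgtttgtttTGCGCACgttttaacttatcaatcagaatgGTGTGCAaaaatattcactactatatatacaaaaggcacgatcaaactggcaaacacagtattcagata
MtnD, chr3R:20534832-20534961, plus strand: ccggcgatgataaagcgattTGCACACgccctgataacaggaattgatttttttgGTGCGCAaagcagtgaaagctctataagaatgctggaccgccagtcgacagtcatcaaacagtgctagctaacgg
Over the 250 bases before the gene start, MtnA and MtnB held 2 matches each and MtnC and MtnD 4 each. None was found before the other 6 genes. At least 1 match was present before 15.0% of 13968 protein-coding genes, at least 2 before 2.38% and at least 4 before 0.0501%, which were 7 genes. A match says only that these letters are there.

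One ferritin transcript carries a second kind of element. The iron response element is a short RNA hairpin to which iron regulatory proteins bind when iron is low, which holds back translation of ferritin. It is shown with the loop CAGTGN in capitals and the other bases in lower case. These are a leading c, not counted among the pairs, and 5 stem bases on each side of the loop.
Fer1HCH, chr3R:30387687-30387703, minus strand: ctgcgcCAGTGTgtgta
The element lies in the 5′ UTR of 1 of 9 annotated Fer1HCH transcripts, and 5 of 5 stem bases pair, with G and U of the RNA counted as a pair. None of the 5 Fer2LCH transcripts held one. An element with at least 4 of 5 pairs was found in a 5′ UTR of 93 of 13466 genes, or 0.691%. RNA-seq counts of whole genes do not show which transcript was used or how it was translated.

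Levels were given as each group's mean of 3 libraries in normalized counts, that is, reads per gene after division by the size factor of the library. Sums over all genes ran between 4455810 and 11591900 normalized counts a group in muscle and between 4842590 and 7683340 in heads. For 6 genes low enough in expression the read counts of the single libraries could be worked back from the deposited mean, since only 1 set of 3 whole read counts gives it to its last digit. Those libraries were compared with limma, with Benjamini-Hochberg adjustment over every gene recovered in a table. Tsf1, Fer1HCH, Fer2LCH and MtnA were too abundant for this, so they have group means but no test. In addition any of the 10 genes was called at a fold of 1.5 between the 2 group means, with a mean of at least 10 over both. Brackets after a log2 ratio give its 95% interval, which covers counting error only. A p-value here measures the spread between libraries, which are pools and may not be separate cultures.

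Genes could be ranked within a tissue by CPM per kilobase of exon, where CPM are normalized counts scaled to the same sum in each group. In 30d WT muscle Tsf1 had 1982 to 2290 over the 3 WT groups, which MtnA overlapped at 816 to 2317. Tsf1 came first in 2 of the 3 groups. In the WT flies set against single mutants MtnA came first, with 2317 against 2290 for Tsf1. Fer1HCH at 638 to 1114 and Fer2LCH at 583 to 938 overlapped each other and the lower end of MtnA. A wide gap followed. MtnC stood at 35.6 to 91.6, Zip102B at 19.9 to 24.2, Mvl at 12.4 to 14.5, Tsf3 at 10.4 to 14.0 and MtnD at 2.76 to 7.64, where the ranges of Mvl and Tsf3 overlapped. MtnB was barely detected, with 0 to 0.124.

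Heads kept the same leaders at lower ferritin and metallothionein levels. On the same scale, Tsf1 had 1884 to 2115, MtnA 536 to 727, Fer2LCH 339 to 406, Fer1HCH 299 to 321, Zip102B 28.3 to 35.8, Mvl 16.7 to 20.2 and Tsf3 15.2 to 18.1 in the 3 WT groups. The light chain of ferritin stood above the heavy chain in heads, where their ranges did not overlap. Although the ranges overlapped in muscle, the heavy chain stood above the light chain within each 30d WT group there. The ratio of heavy to light chain was 1.03 to 1.19 in those groups and 0.789 to 0.899 in WT heads. MtnC, which came next after ferritin in muscle, had 0 to 0.678 in heads. In reads, MtnC gave 0 to 4 over the 3 libraries of any group of heads, against 134 to 659 in the 30d WT groups of muscle. Tables were normalized separately, so levels of the tissues are set side by side with no test.

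Dissected samples are not pure. Midgut markers summed to 4042 to 5298 CPM in the mutant groups of muscle and to 4452 to 4932 in the 30d WT groups, against 0.559 to 3.15 and 0.776 to 2.91 in heads. The muscle samples thus held midgut RNA. Fat body markers summed to 4167 to 6612 CPM in mutant muscle and 5256 to 7560 in 30d WT muscle, and hemocyte markers to 555 to 742 and 618 to 723. Photoreceptor markers in heads summed to 33259 to 38999 in mutants and 34676 to 40263 in WT. Ferritins, Tsf1 and metallothioneins are known from gut and fat body as well, and bulk RNA-seq cannot tell fewer cells of a type from less RNA per cell. The part of other cell types in the mutant results was not tested. As a check of the labels, esc had 7.05 normalized counts in esc muscle against 22.1 in WT, and 11.2 in esc E(z) muscle against 25.6 in WT. In heads, esc had 37.5 in esc mutants against 62.8 in WT and 43.4 in esc E(z) against 53.3 in WT. p55 had 81.7 in p55 muscle against 133.7 in WT. E(z), Pcl and Su(z)12 moved little in their own mutants, with log2 ratios between −0.29 and 0.17 over 12 comparisons, so they check nothing.

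The first comparison asks what happened to metal genes in WT muscle with age. Most were higher in the 30d group of this comparison. The other 30d WT groups of muscle were not tested against 3d muscle. By the fold of 1.5, 6 of the 9 genes with enough counts were higher and 0 lower, where 10.6% of 9294 genes were higher and 13.6% lower. The median log2 ratio of the 9 was 0.64, against 0.02 for all genes tested. MtnA led, MtnD, Fer1HCH and Tsf1 followed, and the transporters Mvl and Zip102B were close to their 3d levels.

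Tsf1, the main iron carrier of the hemolymph, averaged 41329 normalized counts in 30d muscle and 19707 in 3d muscle, a log2 ratio of 1.07 [1.05, 1.08]. Fer1HCH, the heavy chain, averaged 11067 at 30d and 5177 at 3d, a log2 ratio of 1.10 [1.07, 1.12]. Fer2LCH, the light chain, averaged 7019 at 30d and 4519 at 3d, a log2 ratio of 0.64 [0.60, 0.67]. The heavy chain thus shifted more than its partner. Per kilobase, the ratio of heavy to light chain was 1.09 at 30d and 0.795 at 3d. These 3 genes have no value per library, so whether the differences exceed the spread between libraries was not tested. The 30d WT groups of muscle can be compared after scaling by the median ratio of all genes. Between them Tsf1 differed by at most 0.21 and Fer1HCH by at most 0.81 on the log2 scale, less than with age. Fer2LCH differed by up to 0.69, more than its age ratio of 0.64.

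Of the metallothioneins, MtnA and MtnD had the widest ratios of the 9 genes tested, and that of MtnC was below those of the ferritin chains, Tsf1 and Tsf3. MtnA averaged 6252 normalized counts in 30d muscle and 1331 in 3d muscle, a log2 ratio of 2.23 [2.18, 2.28]. Of all genes tested, 99.3% had a lower ratio. MtnD had 14.1, 15.1 and 16.7 in the 30d libraries, against 4.08, 4.66 and 6.87 in the 3d libraries. It rose by 1.42 on the log2 scale of limma (SE 0.39, adjusted p = 0.00841, limma with Benjamini-Hochberg adjustment). MtnC had 163, 175 and 201 in the 30d libraries, against 99.1, 110.0 and 149.8 in the 3d libraries. The groups did not overlap, and MtnC rose by 0.60 (SE 0.14, limma adjusted p = 0.00334), while its ratio of means, 0.58, lay just under the fold of 1.5. Between 30d WT groups of muscle MtnC differed by up to 1.36, more than with age. In CPM, MtnC was at 24.6 in this 30d group, 9.53 in the 30d WT group of the single mutants and 10.3 at 3d. MtnA differed by up to 1.53 between 30d WT groups, less than its age ratio. MtnD, with means partly under the minimum, differed by −1.49 at the widest, against 1.56 with age by group means. MtnB had 2 reads over the 30d libraries and 1 over the 3d libraries, too few to compare.

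Tsf3, a further transferrin family gene, lies at chr2R:16226501-16229869 and shares exon bases with CG15706. Reads from the shared bases cannot be told apart, as for the ferritin overlap. It had 195, 204 and 229.9 normalized counts in the 30d libraries, against 133, 133 and 139 in the 3d libraries. Every 30d library lay above every 3d library, and Tsf3 rose by 0.63 (SE 0.10, limma adjusted p = 0.000176). Between 30d WT groups of muscle Tsf3 differed by at most 0.44, less than with age. All 3 genes that limma could test with age, Tsf3, MtnC and MtnD, passed, where 40.5% of 6468 genes did. Their libraries did not overlap, as was so for 26.2% of genes in this direction. All 3 calls held without any 1 library, where the adjusted p stayed at or below 0.0366. Mvl, which carries manganese and iron across membranes and is the fly's NRAMP-type transporter, averaged 512 at 30d and 479 at 3d, a log2 ratio of 0.10 [−0.01, 0.20]. Zip102B, a member of the ZIP family of zinc transporters, averaged 538 at 30d and 558 at 3d, a log2 ratio of −0.05 [−0.15, 0.05].

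**Figure D1:**
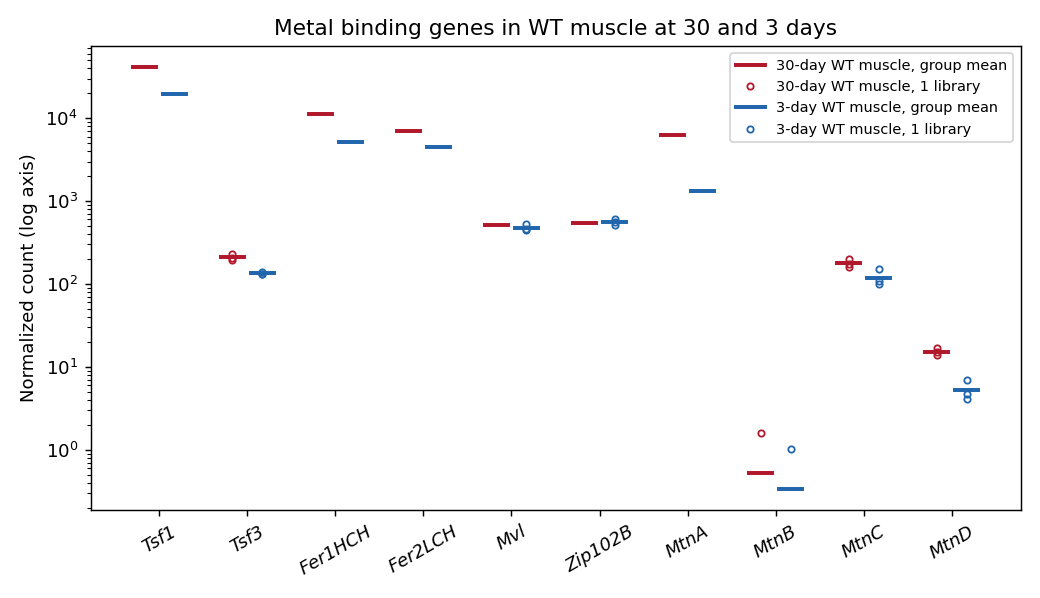
Normalized counts (log axis) of the 10 genes in WT muscle at 30d (red) and 3d (blue), with the group mean as a bar and single libraries as open circles where they could be recovered, libraries at 0 not drawn. MtnA stands at 6252 in 30d muscle against 1331 in 3d muscle, while Mvl and Zip102B nearly coincide.

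Make-up of the libraries changed with age as well. The sum of normalized counts over all genes differed by −0.67 on the log2 scale, 30d over 3d, and mt:lrRNA, the large ribosomal RNA of mitochondria, took 2.48% at 30d and 14.4% at 3d. With both ages scaled to equal sums, all age ratios were 0.67 higher and 9 of 9 genes were past the fold, so that Zip102B turned to 0.61. Muscle markers were past the fold downward in 6 of 6, with 6810 CPM at 30d and 12537 at 3d. Fat body markers summed to 7560 CPM at 30d and 3957 at 3d, and midgut markers to 4480 and 3050. In normalized counts, the fat body sum differed by 0.27 and the midgut sum by −0.11 on the log2 scale, both less than Tsf1, MtnA or the ferritin chains did. The part of these shifts in the metal genes was not tested.

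PRC2 mutants ask whether the same genes moved in muscle when the complex was reduced. MtnC, a metallothionein, was higher in the 5 single mutants than in their WT group. Fer1HCH and MtnA were past the fold downward in 3 and 4 of them. No gene was past the fold in the double mutants. Of 26 tests on 5 genes, 5 passed after adjustment, all of them MtnC and all upward, and 16 had an unadjusted p under 0.05. Of all genes, 12.6% to 18.2% had an unadjusted p under 0.05 in the 7 mutants. Because 5 of the 7 ratios of each gene share 1 WT group, they are not separate observations.

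By mutant, the genes past the fold were the following. In esc muscle MtnC was higher and Fer1HCH and MtnA were lower, of 8 genes tested, where 2.28% of all genes were higher and 2.54% lower. E(z) muscle gave the same 3 genes in the same directions, against 1.83% higher and 2.29% lower overall. Pcl muscle had MtnC alone, against 1.96% higher and 1.64% lower. Su(z)12 muscle again had MtnC higher and Fer1HCH and MtnA lower, against 2.84% and 2.82% of all genes. In p55 muscle MtnC was higher and MtnA lower, against 2.56% and 1.85%. No gene of the 8 was past the fold in esc E(z) muscle, where 1.74% of genes were higher and 2.6% lower. Likewise none of 9 was in Pcl Su(z)12 muscle, where 2.68% were higher and 2.27% lower. The median log2 ratio of the tested metal genes lay between −0.27 and −0.07 in the 7 mutants, against −0.01 to 0.00 for all genes.

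MtnC was the gene that set mutants apart from their control. The 3 WT libraries shared by the single mutants had 42.4, 43.3 and 43.7 normalized counts. Su(z)12 libraries had 103, 120.2 and 158, and MtnC rose by 1.52 (SE 0.16, limma adjusted p = 1.50e-05). In esc libraries it had 88.4, 96.4 and 134.6 and rose by 1.26 (SE 0.16, limma adjusted p = 9.49e-06). Each library of these mutants held more than the highest WT library. p55 libraries had 66.9, 94.7 and 112, a rise of 1.03 (SE 0.18, limma adjusted p = 0.00521). E(z) libraries had 64.2, 83.2 and 88.6, a rise of 0.84 (SE 0.16, limma adjusted p = 0.00979). Pcl libraries had 61.7, 64.0 and 76.0, a rise of 0.62 (SE 0.16, limma adjusted p = 0.0431). Here too no mutant library overlapped the WT libraries, as was so in the upward direction for 8.84% of genes in p55, 11.2% in Su(z)12, 8.92% in Pcl, 8.91% in E(z) and 8.71% in esc. Limma called 1.99% of genes in p55, 5.4% in Su(z)12, 2.53% in Pcl, 2.35% in E(z) and 3.84% in esc.

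Not all of these calls held without each library. The Pcl call was lost whichever library was left out, at adjusted p from 0.0657 to 0.184. The E(z) call was lost without the E(z) library at 88.6 (adjusted p = 0.0713) and without the one at 83.2 (adjusted p = 0.0521). Those of esc, Su(z)12 and p55 stayed under 0.05 without any 1 library. In the double mutants the picture differed. The esc E(z) libraries had 109, 119 and 124, against 87.6, 121.8 and 143 in their WT libraries, which they overlapped, and the difference was 0.03 (SE 0.15, limma adjusted p = 0.955). The Pcl Su(z)12 libraries had 197, 233 and 250.5, against 163, 175 and 201 in their WT libraries, a difference of 0.34 (SE 0.11, limma adjusted p = 0.122). Without the Pcl Su(z)12 library at 197 the comparison gave an adjusted p of 0.0212. Limma called 3.96% of genes in Pcl Su(z)12 and 4.11% in esc E(z).

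The control bears on this directly. The WT muscle shared by the single mutants held less MtnC than both other 30d WT groups of muscle. Against the WT group of esc E(z), scaled to it by the median ratio of all genes, it had 42.4, 43.3 and 43.7 against 76.7, 107 and 125, a difference of −1.21 (SE 0.17, limma adjusted p = 0.00210). Set beside the WT group of Pcl Su(z)12 in the same way, it had these values against 100.2, 108 and 124, a difference of −1.33 (SE 0.12, limma adjusted p = 1.02e-05). The other 2 WT groups differed from each other by −0.13 (SE 0.15, limma adjusted p = 0.715). In CPM, MtnC was at 15.1 to 27.8 in the 5 single mutants, 9.53 in their WT group, and 23.1 and 24.6 in the other WT groups. By mutant, it was at 15.1 in Pcl, 17.6 in E(z), 20.0 in p55, 23.5 in esc and 27.8 in Su(z)12. On this scale Su(z)12 alone lay above both other WT groups of the same age and line. Limma called 3.39%, 7.34% and 5.09% of genes in these 3 WT pairs.

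**Figure D2:**
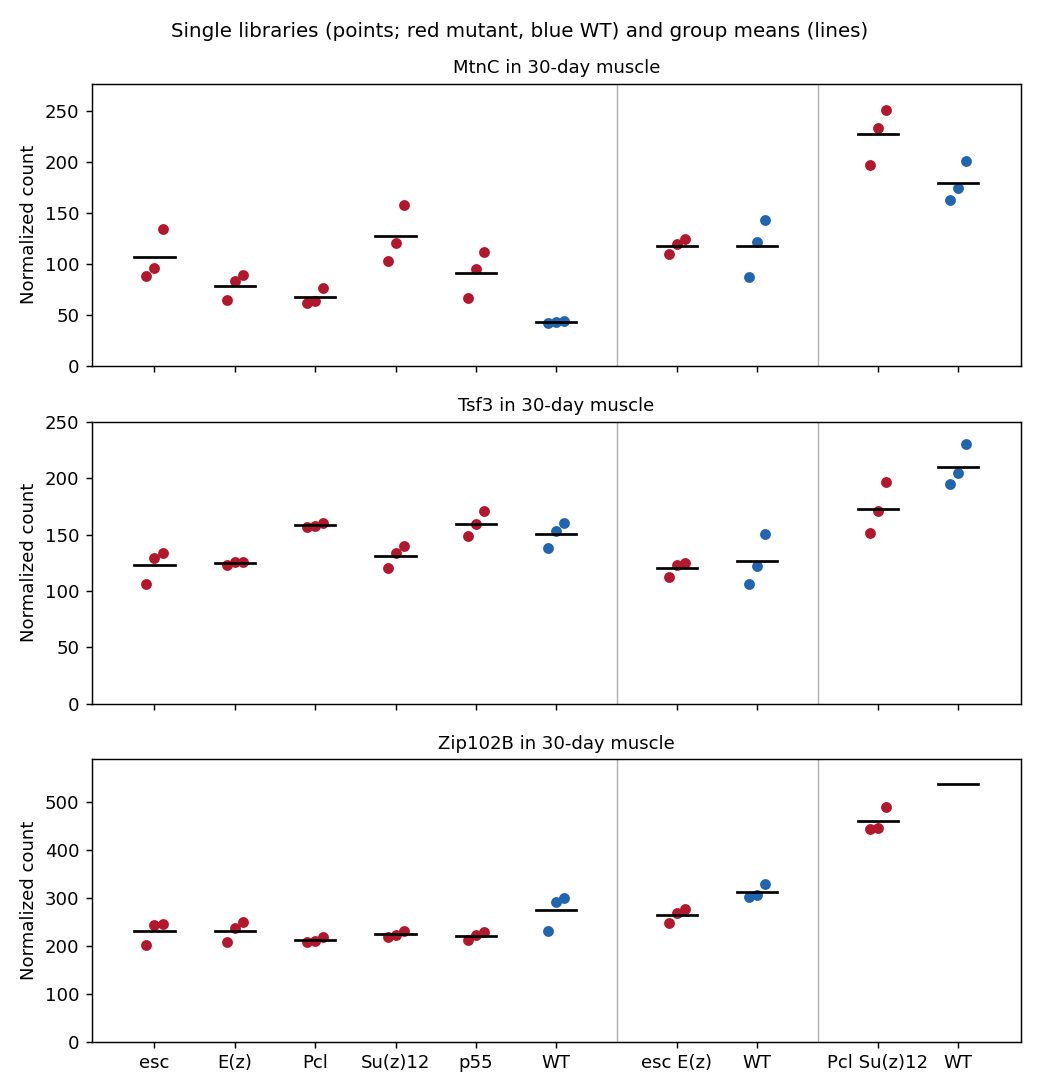
Normalized counts of MtnC (top), Tsf3 (middle) and Zip102B (bottom) in single libraries of 30d muscle, mutants in red left of their WT group in blue, lines at group means and gray lines between tables that were normalized separately. The 3 WT libraries of the single mutants lie close together at 42.4 to 43.7 for MtnC, below all mutants of that table and below the WT libraries of the other tables. Zip102B in the WT group of Pcl Su(z)12 has its mean alone.

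Both ferritin chains were lower in all 7 mutants of muscle, and by less in Pcl and in the double mutants. Of 8669 genes tested in all 7, 7.59% were lower in each. Fer1HCH averaged 8629 normalized counts in p55, 7687 in Su(z)12, 10196 in Pcl, 7200 in E(z) and 7644 in esc, against 11977 in their WT group. The log2 ratios were −0.47 in p55, −0.64 in Su(z)12, −0.23 in Pcl, −0.73 in E(z) and −0.65 in esc. In esc E(z) it averaged 6694 against 8817 in WT, a log2 ratio of −0.40, and in Pcl Su(z)12 9403 against 11067 in WT, a ratio of −0.24. Fer2LCH was lower by less, with an average of 5181 in esc muscle, 5135 in E(z) muscle, 6766 for Pcl, 5337 for Su(z)12 and 5434 for p55, against 6997 in WT. Its log2 ratios ran from −0.45 in E(z) to −0.05 in Pcl over the single mutants, and were −0.10 in Pcl Su(z)12 and −0.21 in esc E(z). Accordingly the ratio of heavy to light chain per kilobase was 0.973 to 1.10 in the single mutants against 1.19 in their WT group, 0.903 in esc E(z) against 1.03 in WT, and 0.997 in Pcl Su(z)12 against 1.09 in WT.

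MtnA, the most abundant metallothionein, averaged 4572 in p55, 4837 in Su(z)12, 6801 in Pcl, 4487 in E(z) and 4756 in esc, against 7338 normalized counts in their WT group. The log2 ratios were −0.68 in p55, −0.60 in Su(z)12, −0.11 in Pcl, −0.71 in E(z) and −0.63 in esc. In esc E(z) it averaged 2227 against 2903 in WT, and in Pcl Su(z)12 5540 against 6252 in WT, log2 ratios of −0.38 and −0.17. MtnA and MtnC, 2 genes of 1 family with the same promoter element, thus lay on opposite sides of their WT group in the 5 single mutants.

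Here again the WT groups differed among themselves. Between the 3 WT groups of muscle, brought to 1 scale, 8 differences of metal genes were past the fold, where 5.04%, 5% and 3.64% of all genes were in the 3 pairs. The WT group of the single mutants had more MtnA than the WT groups of esc E(z) and Pcl Su(z)12 by 1.53 and 0.93 on the log2 scale, and these 2 differed by −0.60. Fer1HCH was higher in it by 0.63 and 0.81, and Fer2LCH was higher by 0.69 than in the WT group of Pcl Su(z)12. The widest WT difference, 1.53 for MtnA, 0.81 for Fer1HCH and 0.69 for Fer2LCH, was larger in size than the widest mutant ratio of the same gene, −0.71 for MtnA, −0.73 for Fer1HCH and −0.45 for Fer2LCH. In CPM, Fer1HCH was at 1284 to 2288 in mutants and 1515 to 2647 in WT muscle, Fer2LCH at 893 to 1519 and 961 to 1546, and MtnA at 446 to 1526 and 571 to 1622. The ranges overlap for all 3.

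**Figure D3:**
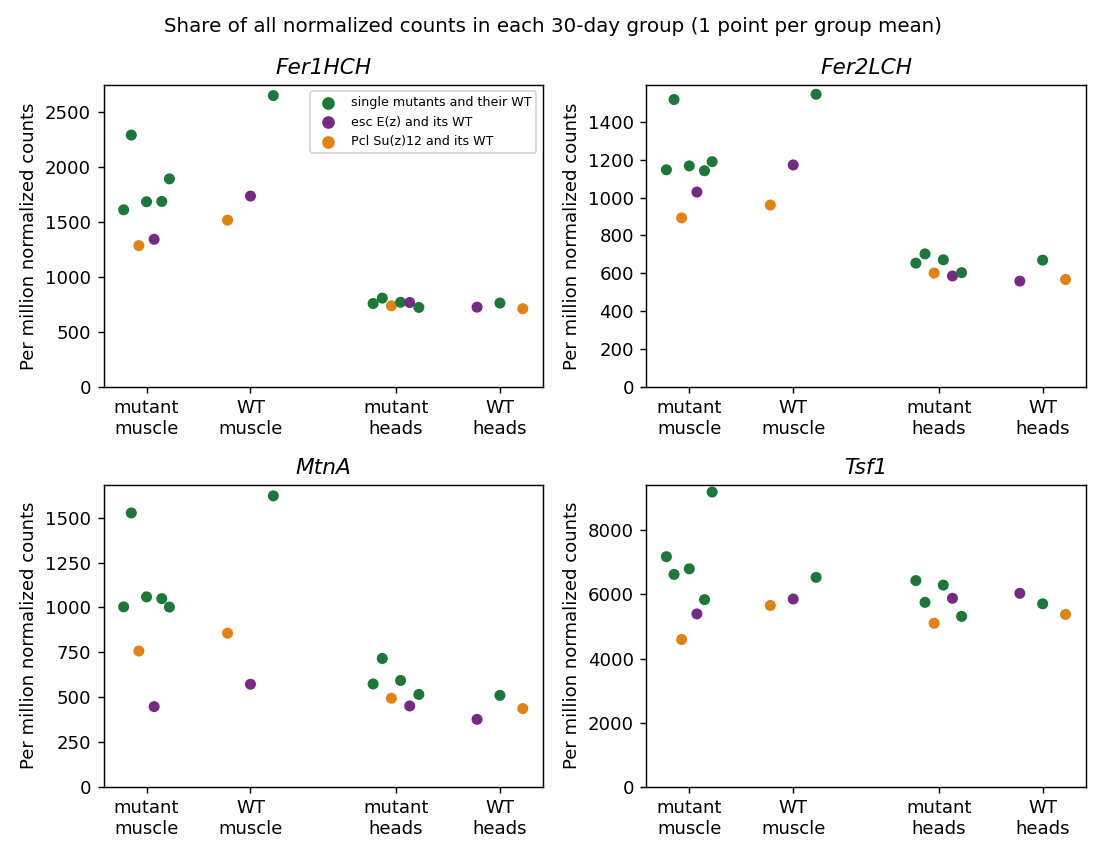
CPM of Fer1HCH, Fer2LCH, MtnA and Tsf1 in each 30d group, 1 point a group mean, mutants left of WT in each tissue and colored by the table they come from. For Fer1HCH and MtnA the WT muscle of the single mutants, at 2647 and 1622, lies above all other muscle groups, and heads vary less.

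Tsf1 took no common course in mutant muscle. Its averages were 41999 in p55, 31085 in Su(z)12, 29528 in Pcl, 32133 in E(z) and 26491 in esc, against 29569 normalized counts in WT. The p55 ratio was the highest, 0.51 [0.49, 0.52], under the fold. Fat body markers in p55 muscle summed to 4429 CPM against 5980 in WT. The part of fat body content in the Tsf1 ratio was not tested. In the double mutants Tsf1 averaged 26924 in esc E(z) against 29784 in WT and 33652 in Pcl Su(z)12 against 41329 in WT, log2 ratios of −0.15 and −0.30. Between WT groups Tsf1 differed by at most 0.21.

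Tsf3 passed in no mutant of muscle, and was below WT in some. The esc libraries had 106, 129 and 133 and the E(z) libraries 123, 125 and 126, against 138, 153 and 160.5 in WT. Neither overlapped the WT libraries, as for 11% of genes in esc and 10.1% in E(z) in this direction, and the differences were −0.29 (SE 0.12, limma adjusted p = 0.207) and −0.26 (SE 0.11, limma adjusted p = 0.281). Pcl Su(z)12 libraries had 152, 171 and 197, against 195, 204 and 229.9 in WT, a difference of −0.28 (SE 0.11, limma adjusted p = 0.205). In Pcl, Su(z)12, p55 and esc E(z) the ratios lay between −0.20 and 0.09, and mutant and WT libraries overlapped. Between WT groups Tsf3 differed by up to 0.44, which is wider than any of its ratios in mutant muscle, and the WT group of the single mutants was the high one, 0.44 above that of esc E(z) on the log2 scale of group means (limma difference 0.45, SE 0.13, adjusted p = 0.0771).

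Of the transporters, Zip102B was lower by a like amount in each mutant, with log2 ratios between −0.37 and −0.23. Of 8669 genes tested in all 7 mutants, 7.59% were lower in each. Pcl libraries had 209, 209 and 219, Su(z)12 libraries 219, 222 and 230.5, and p55 libraries 212, 223 and 229, against 231, 292 and 299 in WT. None of the 3 overlapped WT, as for 9.59%, 11.2% and 9.49% of genes in this direction. esc E(z) libraries had 248, 269 and 276, against 302, 306 and 329 in WT, again with no overlap, as for 11.1% of genes. None of these passed, with differences of −0.36 in Pcl (SE 0.10, limma adjusted p = 0.0690) and −0.24 in esc E(z) (SE 0.08, limma adjusted p = 0.102) the nearest. The WT library at 231 decided 2 of them: without it, Pcl gave −0.47 (limma adjusted p = 0.00654) and Su(z)12 −0.40 (limma adjusted p = 0.0230). Between WT groups Zip102B differed by at most 0.28. Mvl differed from WT by −0.19 to 0.00 in muscle. Su(z)12 libraries had 301, 329.8 and 345 and p55 libraries 314, 326 and 344, against 357, 363 and 391 in WT, with differences of −0.19 and −0.18 (limma adjusted p = 0.246 and 0.504). Libraries of both lay below WT, as for 11.2% and 9.49% of genes.

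MtnB and MtnD were scarce in muscle. MtnB gave 0 to 6 reads over the 3 libraries of any group in either tissue, so nothing can be said of it. MtnD was under the minimum of 10 in all mutant tables of muscle but 1. In esc libraries it had 4.94, 12.8 and 13.2, in E(z) 6.31, 7.29 and 13.3 and in Pcl 6.82, 7.35 and 14.5 normalized counts, against 1.99, 3.42 and 4.89 in WT, which rest on 11 WT reads. Su(z)12 had 3.31, 4.85 and 9.55 and p55 2.68, 5.71 and 6.92, which overlapped the same WT libraries. In esc E(z) it had 4.76, 7.12 and 7.44 against 2.43, 3.56 and 5.54 in WT. Pcl Su(z)12 was the table with enough counts, with 11.4, 11.6 and 14.0 against 14.1, 15.1 and 16.7 in WT, where the mutant libraries lay below WT, as for 10.1% of genes, and the difference was −0.29 (SE 0.27, limma adjusted p = 0.668).

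Heads put the same question to another tissue, and there none of the 10 genes was past the fold or passed limma, which could test 3 of them. Of 7 genes with enough counts, 0 were past the fold in any of the 6 mutants, where 1.43% of genes were higher and 1.53% lower in esc, 1.98% and 1.46% in E(z), 1.8% and 1.87% in Pcl, 3.64% and 2.1% in Su(z)12, 2.18% and 2.23% in esc E(z) and 2.12% and 2.17% in Pcl Su(z)12. Limma could test 8 gene and mutant pairs, of Tsf3, Mvl and Zip102B, and 0 passed, with 0 at an unadjusted p under 0.05, where 13.4% to 17.4% of all genes had one. It called 3.36% of genes in Su(z)12, 4.83% in Pcl, 3.34% in E(z), 3.14% in esc, 3.65% in Pcl Su(z)12 and 5.03% in esc E(z). The abundant genes have no such test. The 3 WT groups of heads gave 0 calls among the metal genes, where 3.08%, 2.59% and 1.86% of all genes were past the fold.

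Ferritin in heads hardly moved. Fer1HCH averaged 3599 in esc, 3740 in E(z), 3941 in Pcl and 3721 in Su(z)12, against 3731 normalized counts in WT, and its 6 log2 ratios, the double mutants included, lay between −0.05 and 0.10. Those of Fer2LCH lay between −0.12 and 0.13 and those of Tsf1 between −0.08 and 0.18. MtnA was above WT in each mutant, as were 8.79% of 8941 genes tested in all 6. It averaged 2564 in esc, 2827 in E(z), 3494 in Pcl and 2867 in Su(z)12, against 2494 in WT, 2685 in esc E(z) against 2223 in WT, and 3786 in Pcl Su(z)12 against 3245 in WT. The log2 ratio was lowest in esc at 0.04 and highest in Pcl at 0.49. The WT groups of heads differed in MtnA by up to 0.43, which is more than 5 of the 6 ratios. Mvl lay below WT, with 415 for Su(z)12, 432 for Pcl, 475 for E(z) and 492.6 for esc, against 558 in WT, and ratios between −0.43 and −0.09 over the 6 mutants. Of all genes tested, 8.97% were lower in each of the 6. The WT heads of the single mutants held more Mvl than the WT groups of esc E(z) and Pcl Su(z)12, by 0.27 and 0.22 on the log2 scale. In esc E(z), where its libraries could be recovered, Mvl had 504, 520.02 and 548 against 531, 563 and 578 in WT, a difference of −0.09 (SE 0.07, limma adjusted p = 0.551). Tsf3 had 172, 185 and 201 in esc heads, against 195, 207 and 232 in WT heads, which overlap, and its ratios ran from −0.18 to 0.15 over the 6 mutants (limma adjusted p from 0.365 to 0.762). The ratios of Zip102B ran from −0.22 to −0.04, and its WT groups of heads differed by up to 0.27.

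**Figure D4:**
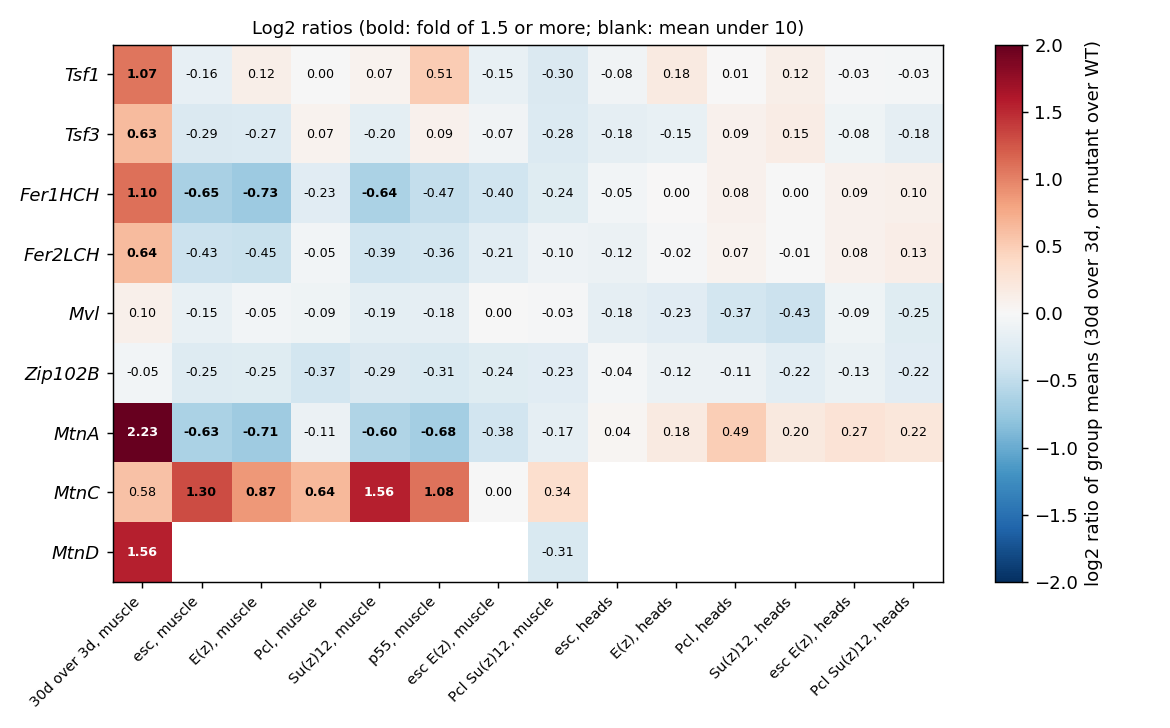
Log2 ratios of group means for 9 genes (rows; MtnB is left out) in the age comparison, 7 mutants of muscle and 6 mutants of heads (columns), with ratios past a fold of 1.5 in bold and cells with a mean under 10 blank. The age column is mostly red, up to 2.23 for MtnA, while Fer1HCH and MtnA are blue and MtnC red in mutant muscle, and no cell is bold in heads.

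Other metal genes were taken from 3 lists, 10 more iron genes, 9 genes of copper handling with MTF-1 and the fifth metallothionein MtnE, and 15 zinc transporters. Of the other iron genes, 0 of 8 were past the fold with age, with a median log2 ratio of 0.11. By limma, Tsf2, a transferrin of epithelial junctions, rose by 0.34 (SE 0.09, adjusted p = 0.00492), and Ho, heme oxygenase, which frees iron from heme, fell by 0.30 (SE 0.07, adjusted p = 0.00332), of 4 genes tested. With age 40.5% of 6468 genes passed. The sums over all genes differed by −0.67 between the ages on the log2 scale. That is larger in size than the fall of Ho, so its direction depends on the scale. Over the mutants of muscle 1 of 40 tests passed, Ho in Pcl Su(z)12 at −0.30 (SE 0.07, limma adjusted p = 0.0304), where 1.99% to 5.4% of all genes passed in the 7 mutants. In heads 1 of 35 passed, the multicopper oxidase Mco1 in Pcl Su(z)12 at −0.89 (SE 0.23, limma adjusted p = 0.0453), where 3.14% to 5.03% of all genes passed in the 6 mutants. Both shares are near those of all genes. MTF-1 itself was past the fold nowhere, with log2 ratios between −0.07 and 0.19 in muscle and 0.02 and 0.22 in heads.

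Of the copper genes, 3 of 6 passed limma with age, all upward, where 40.5% of 6468 genes passed in either direction. Ctr1B, a copper importer, had 119.7, 131 and 158 at 30d against 83.6, 100.3 and 113 at 3d and rose by 0.46 (SE 0.14, limma adjusted p = 0.0157). ATP7, a copper-transporting ATPase, had 549.6, 552 and 577 at 30d against 479, 485 and 502 at 3d and rose by 0.19 (SE 0.06, limma adjusted p = 0.0191). The third was MtnE. Its 30d libraries had 60.8, 83.2 and 86.9, against 8.16, 23.4 and 30.2 in the 3d libraries, and it rose by 2.01 (SE 0.33, limma adjusted p = 0.000165). Among single mutants it had 33.8, 41.5 and 48.6 in esc and 31.2, 36.6 and 37.8 in Pcl, against 10.3, 13.9 and 24.4 in WT. The other single mutants overlapped the same WT libraries, with 15.6, 22.1 and 44.6 in E(z), 12.4, 13.2 and 33.0 in Su(z)12 and 7.14, 8.15 and 11.5 in p55. The single mutants thus lay on both sides of WT: p55 differed by −0.73 (SE 0.37, limma adjusted p = 0.446), Su(z)12 by 0.20 (SE 0.38, limma adjusted p = 0.852) and E(z) by 0.68 (SE 0.36, limma adjusted p = 0.419). Limma called 3.84% of all genes in esc muscle and 2.53% in Pcl muscle. The MtnE rises that passed were 1.37 in esc (SE 0.27, limma adjusted p = 0.00232) and 1.15 in Pcl (SE 0.28, limma adjusted p = 0.0319). As for MtnC, its WT group was low: it differed from the WT group of Pcl Su(z)12 by −1.56 (SE 0.26, limma adjusted p = 0.00193). In Pcl Su(z)12 the libraries had 46.3, 49.1 and 55.6, against 60.8, 83.2 and 86.9 in WT, a difference of −0.59 (SE 0.16, limma adjusted p = 0.0598), and in esc E(z) 47.9, 67.4 and 67.7, against 29.3, 43.5 and 49.9 in WT, a difference of 0.58 (SE 0.21, limma adjusted p = 0.153). In heads the copper gene that passed was Ccs, the copper chaperone of superoxide dismutase. It had 102, 106 and 116 in Su(z)12 and 87.9, 109.8 and 117 in E(z), against 57.8, 63.7 and 73.0 in WT, rises of 0.73 (SE 0.14, limma adjusted p = 0.0119) and 0.68 (SE 0.15, limma adjusted p = 0.0117). Limma called 3.36% of all genes in Su(z)12 heads and 3.34% in E(z) heads. Smaller Ccs rises in esc (0.40, limma adjusted p = 0.185) and Pcl (0.38, limma adjusted p = 0.169) did not pass. Neither double mutant passed: Ccs differed by 0.16 for esc E(z) (limma adjusted p = 0.565) and by −0.13 for Pcl Su(z)12 (limma adjusted p = 0.681). The shared WT heads of the single mutants differed in Ccs from the esc E(z) control by −0.43 (SE 0.14, limma adjusted p = 0.123), which did not pass.

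Of the zinc transporters, 3 rose and 2 fell of 8 that limma could test with age, where it called 40.5% of 6468 genes. Zip89B, of the importing ZIP family, rose by 1.21 (SE 0.13, limma adjusted p = 2.13e-06), with 135, 143 and 152 at 30d against 54.8, 64.2 and 64.6 at 3d. ZnT77C, of the exporting ZnT family, fell by 1.30 (SE 0.14, limma adjusted p = 2.83e-06), with 83.7, 109 and 129.96 at 30d against 227, 279.8 and 285 at 3d. ZnT41F fell by 0.82 (SE 0.08, limma adjusted p = 1.42e-06), with 265, 271 and 273 at 30d against 421, 498 and 518 at 3d. Limma called 1.99% to 5.4% of all genes in the mutants of muscle and 3.14% to 5.03% in those of heads. ZnT41F passed upward in 3 of 7 mutants of muscle and 5 of 6 of heads. In muscle it had 192, 202 and 206 in Su(z)12 and 153, 162 and 184 in esc, against 104, 119 and 135 in WT, rises of 0.75 (SE 0.11, limma adjusted p = 0.000555) and 0.48 (SE 0.12, limma adjusted p = 0.0193). In Pcl Su(z)12 muscle it had 379.9, 384 and 402, against 265, 271 and 273 in WT, a rise of 0.53 (SE 0.06, limma adjusted p = 0.000879). The WT muscle of the single mutants differed from that of esc E(z) by −0.72 (SE 0.11, limma adjusted p = 0.00431) and from that of Pcl Su(z)12 by −0.48 (SE 0.10, limma adjusted p = 0.0106). In heads it rose in Su(z)12 by 1.13 (SE 0.12, limma adjusted p = 0.000760), with 195, 215 and 220.2 against 85.7, 94.96 and 106 in WT. Rises passed also in esc (0.77, limma adjusted p = 0.000187), E(z) (0.73, limma adjusted p = 0.00636), esc E(z) (0.53, limma adjusted p = 0.0136) and Pcl Su(z)12 (0.55, limma adjusted p = 0.00261), and Pcl libraries lay below WT at 76.5, 81.3 and 82.6. The WT group of the single mutants differed from that of Pcl Su(z)12 by −0.58 in heads (SE 0.11, limma adjusted p = 0.00712). ZnT77C was lower in muscle of Su(z)12, p55 and Pcl Su(z)12, by limma at −0.69, −0.76 and −1.03 (limma adjusted p = 0.0246, 0.0297 and 0.00666). ZnT33D of heads was past the fold downward in all 4 single mutants, where 1.46% to 2.1% of all genes were. It was past the fold upward in both double mutants, where 2.18% and 2.12% of all genes were. Of these mutants, E(z), Pcl and Pcl Su(z)12 passed limma (adjusted p = 0.0449, 0.00833 and 0.0190). The WT heads shared by the single mutants held more ZnT33D than those of esc E(z), by 1.76 (SE 0.29, limma adjusted p = 0.00616).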

How the data were processed

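PolyA RNA-seq of fly muscle and heads was used. Per the study's methods, the authors mapped reads to dm6 with STAR, counted them per gene with HTSeq (intersection-strict, no strand) and normalized them with DESeq. The deposited tables hold, as normalized signal, the mean of 3 libraries' counts divided by their size factors. Their columns of fold changes and p-values were not used. A difference was called at a fold of 1.5 where both groups together averaged 10 or more. Counting intervals are exact Clopper-Pearson (95%). For means up to 600 the read counts of single libraries were recovered by search: 74.5% to 100% of genes per group with a mean of at least 10 had exactly 1 solution, 0.13% of 144309 values had none, and 0 of 6531 means shifted off their value had one. Recovered values, as log2(value + 1), were tested with limma 3.58.1 in R 4.3.3 (3 against 3 libraries, eBayes with trend, Benjamini-Hochberg). This test was chosen after seeing the data, as an addition to the planned fold rule. Groups summed to 4455810 to 11591900 normalized counts in muscle and 4842590 to 7683340 in heads, and intervals cover counting error only. Both steps were tested on simulated data. Promoters were read from the RefSeq Release 6 genome (dm6). The 10 genes and the lists were chosen with earlier results of these data known. Named genes were the 10, list genes past the call with age or in at least 3 mutants of a tissue in 1 direction, and the mutated genes. Tsf2, Ho, Mco1, ATP7, Ctr1B, Ccs and MTF-1 were named after their values were seen. ChIP-seq and small RNA files were not analysed here. Alternatives tried were the fold, the minimum, the scale, the pseudocount and leaving out each library.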

Additional observations from a re-analysis of the deposited data

Results flagged for a closer look

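MtnA lay on opposite sides of WT in the mutants of muscle and heads. Its median log2 ratio was −0.60 over the 7 mutants of muscle and 0.21 over the 6 mutants of heads, and each mutant mean lay below WT in muscle and above WT in heads. Of 8267 genes tested in all 13 comparisons, 15 (0.181%) did the same and 20 (0.242%) the reverse. The difference between tissues was not tested, since MtnA has no value per library, mutants share WT groups, and p55 was not analysed here in heads. The WT groups differed in MtnA by up to 1.53 in muscle and 0.43 in heads.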

How the results depend on the processing

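No paired analysis was possible because the recovered read counts carry no replicate number. Age calls by the fold, 6 as reported, stayed within 1.5 times that count under each alternative run, but moved within this limit. At a fold of 2 only Tsf1, Fer1HCH, MtnA and MtnD were called with age, and with equal sums all 9 tested genes were. Equal sums moved every gene by more than the fold, so that count does not set metal genes apart. Limma called the same number of genes, 3, with age and 0 in heads whichever library was left out. At a fold of 2, calls in mutant muscle were 3 upward and 0 downward, and calls between WT groups of muscle were 3. With no minimum, calls upward were 14 in mutant muscle and 5 in mutant heads, calls downward in heads were 3, and calls between WT groups of heads were 4. The calls that this added were all of MtnB and MtnD, at means under 10. No share of all genes was taken at these settings. Limma calls with 1 library left out ran from 3 to 6 in mutant muscle and from 2 to 3 between WT groups of muscle. Of the 108 log2 ratios, 87 stayed within their counting interval with equal sums and 93 with equal sums without the mitochondrial genome (added after seeing the data), and 7 and 4 changed sign, Zip102B with age to 0.61 and 0.32. A pseudocount of 1 moved 0 of 108. Depth limits MtnB, MtnD and, in heads, MtnC, and no library values limit the 4 abundant genes.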
